A study of Mus musculus with 6 samples.

Results

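The olfactory signal transduction cascade was examined in olfactory epithelium of Harlequin mutant mice through 10 genes, Omp, Gnal, Gng13, Ric8b, Adcy3, Cnga2, Cnga4, Cngb1, Pde1c and Slc24a4. The genes were chosen by name, as every probe set whose platform gene symbol is exactly one of these. They were read by 23 probe sets, and are 10 of the 18193 genes that the platform annotation names singly. All 10 passed the filter on dim signal that left 13219 genes to be tested. The tissue came from 3 Harlequin males (Hq/Y) and 3 wild-type male littermates (+/Y), each profiled on 1 Affymetrix array. The labels give the mutants the strain name B6CBACAw-J/A-Pdcd8-Hq/J and the controls B6CBACa. All mice were purchased at 13 weeks of age and were 6 months old at dissection. Harlequin is a mutation of the X-linked gene Aifm1, formerly Pdcd8, which encodes the mitochondrial apoptosis-inducing factor. It is carried in the germ line, so it is not limited to neurons. The strain names differ although the controls are called littermates, and the sources used here do not say how the names relate. The stated aim of the series was to relate expression to degeneration under oxidative stress.

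Odour detection takes place in the cilia of olfactory sensory neurons. An odorant receptor activates the olfactory G protein, whose alpha subunit Gnal stimulates adenylyl cyclase 3, Adcy3. The cyclic AMP made there opens a cation channel built from Cnga2, Cnga4 and Cngb1, and the calcium that enters opens chloride channels that enlarge the current. Pde1c, a phosphodiesterase switched on by calcium, breaks down cyclic AMP, and the exchanger Slc24a4 carries calcium out of the cilium. Omp, olfactory marker protein, is the classical marker of mature olfactory neurons and takes part in the kinetics of the response.

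Before the cascade itself, the mutated gene checks the labels. Aifm1 had a signal of 335.4, 221.1 and 211.2 on the Harlequin arrays, against 1239.9, 1255.6 and 1128.2 on the control arrays. The mutant mean was 21.2% of the control mean, with a log2 difference of -2.20 (SE 0.18, limma adjusted p = 0.0158) and an exact two-sided permutation p of 0.1, which no design of 3 against 3 can go below. It no longer passed when any single control array was left out, at an adjusted p of 0.097 without replicate 1, 0.0616 without replicate 2 and 0.068 without replicate 3. The arrays were alike in quality, with a median signal of 109.6 to 113.4 in Harlequin and 107.9 to 119.7 in controls. RNA integrity, read as 3' over 5' signal of the Gapdh control probes, lay at 0.729 to 0.79 for Harlequin mice and 0.74 to 0.846 for control mice. Markers of sustentacular cells, the supporting cells of the olfactory epithelium, were bright, with Cyp2g1 at 17439.0 to 17864.0 in Harlequin and 16585.7 to 18072.4 in controls. Added up, 7 mature neuron markers outside the cascade gave 64888 to 74429 per Harlequin array and 65986 to 73712 per control array. Such a sum is set mainly by its brightest genes. The median log2 difference of the 7 genes was 0.00277. The 3 erythrocyte markers above the signal limit summed to 2848 to 3709 in Harlequin and 638 to 1946 in controls, and 5 secretory gland markers to 92580 to 96477 in Harlequin and 99734 to 107871 in controls. The median log2 difference was -0.343 for 4 glia markers, -0.437 for 6 fibroblast markers and 0.799 for 6 neutrophil markers. Medians of the remaining marker lists ran from -0.165 for microvillar and chemosensory cells to 0.271 for olfactory bulb and brain. The part of these other cell types in the results below was not tested.

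The promoters of the cascade genes are shown first, because a single sequence feature recurs in them. RefSeq promoter windows of 300 bases on GRCm38.p6, reaching 250 bases before to 50 bases after an annotated transcript start, were at hand for 8 of the 10 genes, in 12 windows. Omp and Gnal are named only. Each window was searched on both strands for the core of the Olf-1 site, CCCNNGGG, the type of sequence bound by EBF factors of olfactory neurons. It was also searched for the homeodomain core TAATTA. The Olf-1 core, a palindrome that reads the same on both strands, was found in a window of 5 of the 8 genes, Gng13, Cnga2, Cnga4, Cngb1 and Slc24a4. It occurs in 15.4% of the 27025 genes in the table, and in 13.7% of its windows. The homeodomain core was found in 0 of the 12 windows, while 5.29% of all windows hold it. A match is a run of letters and does not show that a factor binds there.

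The windows of the channel subunits are given whole, since all 3 genes of the channel hold the core and their measured levels are set against each other below. Capitals mark the Olf-1 core.
Cnga2, chrX:71991599-71991898, plus strand: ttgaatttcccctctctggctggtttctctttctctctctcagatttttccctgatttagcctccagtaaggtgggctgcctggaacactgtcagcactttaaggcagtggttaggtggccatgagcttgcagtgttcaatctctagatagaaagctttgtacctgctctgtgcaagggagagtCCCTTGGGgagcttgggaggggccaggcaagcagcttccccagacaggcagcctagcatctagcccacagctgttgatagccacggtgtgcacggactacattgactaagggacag
Cnga4, chr7:105404318-105404617, plus strand: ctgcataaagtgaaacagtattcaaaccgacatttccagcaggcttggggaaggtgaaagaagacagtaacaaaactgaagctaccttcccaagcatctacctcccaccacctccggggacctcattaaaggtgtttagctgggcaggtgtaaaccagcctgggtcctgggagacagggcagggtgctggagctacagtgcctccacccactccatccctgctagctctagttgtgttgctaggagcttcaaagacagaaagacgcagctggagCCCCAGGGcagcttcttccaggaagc
Cngb1, chr8:95306536-95306835, minus strand: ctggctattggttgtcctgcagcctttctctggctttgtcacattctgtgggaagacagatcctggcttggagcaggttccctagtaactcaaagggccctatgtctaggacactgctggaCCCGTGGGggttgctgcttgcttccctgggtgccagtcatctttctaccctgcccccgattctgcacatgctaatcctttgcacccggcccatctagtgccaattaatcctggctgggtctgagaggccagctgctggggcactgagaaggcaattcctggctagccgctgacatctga
The core begins 66 bases before the start in Cnga2, 129 bases before it in Cngb1 and 24 bases after it in Cnga4. The Cngb1 window belongs to the outermost annotated start of the gene. Olfactory neurons use a shorter form of Cngb1 than rod photoreceptors do, and the sources used here do not say which start that form uses.

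For the G protein gamma subunit and the calcium exchanger, only the stretch around the core is given. In Gng13 a pair of overlapping matches begins 95 bases before the start, and in Slc24a4 the match begins 109 bases before it.
Gng13, chr17:25717067-25717095, plus strand: gcatgtcccaCCCCAGGGGagacctgcca
Slc24a4, chr12:102128608-102128635, plus strand: tgggcgagcgCCCTAGGGgaggtgtaca
The windows of Ric8b, Adcy3 and Pde1c hold no such core.

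The comparison asked whether the transduction machinery of the olfactory neurons was altered in the mutants. None of the 10 genes passed the test for a change. In limma 0 of 10 had an adjusted p under 0.05 over all genes tested, where 0.0303% of the 13219 genes did (4 genes). The members' adjusted p lay between 0.981 and 0.998, and 1 of them, Cngb1, had an unadjusted p under 0.05, which 4.58% of all genes had. Cngb1 passed the filter on dim signal only through its control arrays, so its place in these counts supports nothing. For 9 of the 10 genes the Harlequin mean was between 0.01 and 0.16 log2 units above the control mean, with SEs of 0.06 to 0.18. Cngb1 was the exception, at a log2 difference of -1.19 on a dim probe set. The median over the 10 genes was 0.04, against 5.17e-05 over all genes tested. Genes whose Harlequin and control arrays did not overlap numbered 1 of 10, or 10% of the members, next to 10.4% of all genes. In whole tissue, fewer neurons and less RNA per neuron cannot be told apart, and neither can an equal level from changes that cancel.

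**Figure D1:**
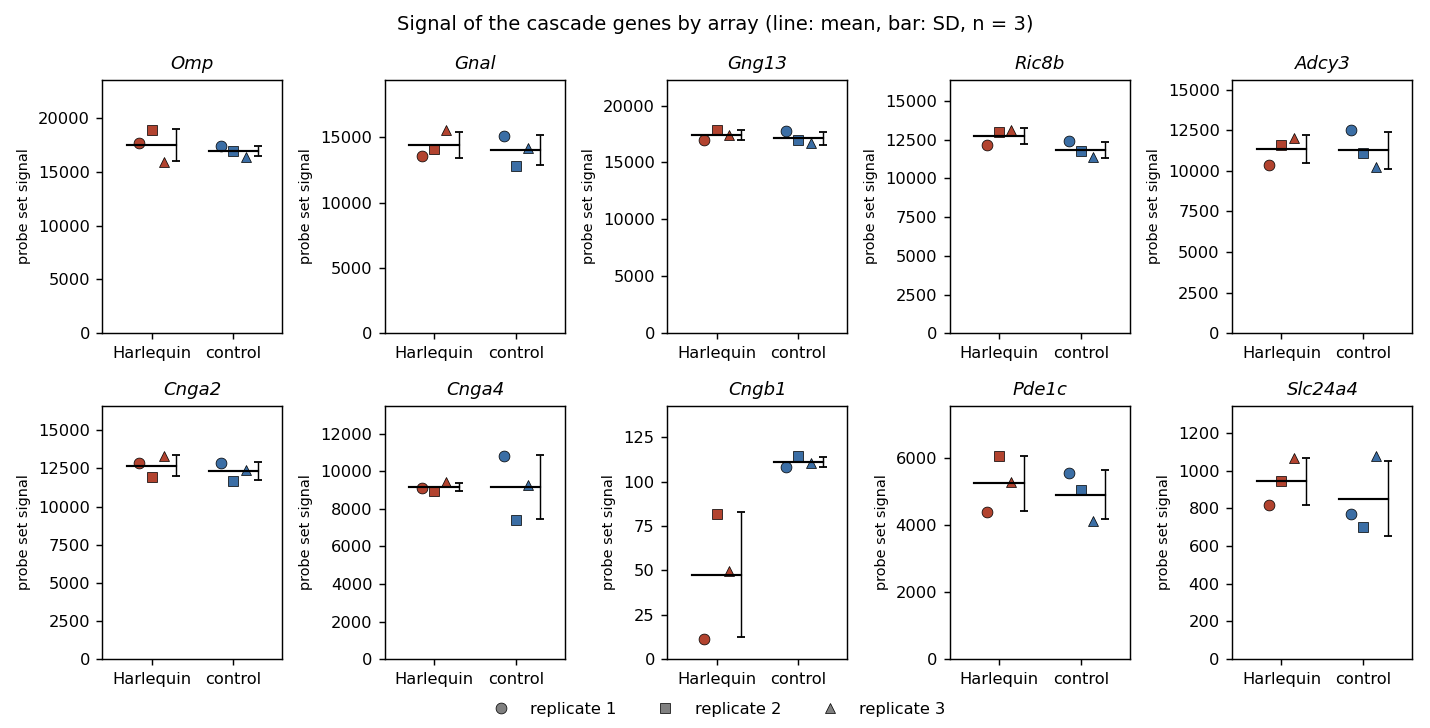
Each panel plots the linear probe set signal of 1 cascade gene (vertical axis, from 0) on the 3 Harlequin arrays, at left in red, and the 3 control arrays, at right in blue, with the mean as a line and the SD as a bar (n = 3 each). Symbols mark the replicate number. The genotypes overlap in every panel except that of Cngb1, where the Harlequin arrays reach 81.8 at most and the control arrays 108.4 at least.

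Omp is the marker of mature neurons among the members, and in whole tissue its level does not separate neuron number from RNA per neuron. Its brighter probe set (1422199_at) read 17661.5, 18821.7 and 15891.8 on the Harlequin arrays, against 17347.8, 16922.4 and 16391.9 on the control arrays. The Harlequin arrays held both the highest and the lowest value of the 6, so the genotypes overlapped. The log2 difference was 0.04 (SE 0.07, limma adjusted p = 0.986), and its 95% interval ran from 0.917 to 1.16 times the control level. The other probe set of Omp was lowest at 12389.1 and highest at 17389.8, both of them Harlequin arrays, and differed by 0.14. With Harlequin replicate 2 left out the sign of the Omp difference turned, to -0.011.

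The G protein genes did not differ between the genotypes beyond the spread of the arrays. Gnal, the alpha subunit that couples odorant receptors to the cyclase, had a signal of 13579.3, 14069.8 and 15523.5 in Harlequin, against 15096.2, 12779.6 and 14180.5 in controls. Its arrays interleaved completely, and the difference was 0.04 (SE 0.08, limma adjusted p = 0.986, 95% interval 0.9 to 1.17 times). A further bright probe set of Gnal differed by 0.08. The remaining one (1446359_at), near the dim end with 80.2 to 150.2 over all arrays, differed by -0.08 with an interval of -0.69 to 0.52.

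Gng13, a gamma subunit that pairs with a beta subunit in the olfactory G protein, had interleaved arrays. Its signal was 16956.8, 17811.8 and 17444.4 in Harlequin, against 17730.1, 16959.7 and 16666.7 in controls. The coefficient of variation between arrays was 2.46% in Harlequin and 3.21% in controls. The difference was 0.02 (SE 0.06, limma adjusted p = 0.989), with a 95% interval of 0.928 to 1.11 times. The second Gng13 probe set, a dim one, read 109.6, 126.7 and 132.5 in Harlequin, against 76.4, 111.0 and 119.1 in controls, and differed by 0.25 (interval -0.23 to 0.73). Gng13 also serves chemosensory cells outside the olfactory neurons. Trpm5, the cation channel of such cells, had a signal of 132.6, 88.4 and 143.9 in Harlequin, against 186.2, 126.9 and 143.1 in controls, and the genotypes overlapped.

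Ric8b, which assists the folding of Gnal and acts as its nucleotide exchange factor, had the smallest unadjusted p of the 9 genes that lay above the control mean. It read 12162.7, 13023.1 and 13098.4 in Harlequin, against 12389.8, 11766.8 and 11376.3 in controls. Harlequin replicates 2 and 3 were the highest of the 6 arrays, but Harlequin replicate 1 lay below control replicate 1. The Harlequin mean of 12761 ± 520 (SD, n = 3) was 108% of the control mean of 11844 ± 511 (SD, n = 3). The difference of 0.11 (SE 0.07, unadjusted p = 0.138, limma adjusted p = 0.981) stayed between 0.08 and 0.14 with any 1 array left out. The other probe set of Ric8b differed by 0.10.

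Adcy3, the cyclase of the olfactory cilium, had the smallest difference of the 10 genes. Its brightest probe set read 10379.3, 11606.0 and 12026.9 in Harlequin, against 12491.2, 11102.4 and 10227.4 in controls. The control arrays held both ends of the range. The difference was 0.01 (SE 0.09, limma adjusted p = 0.998, 95% interval 0.87 to 1.17 times). Its 4 probe sets, of which 3 carry the suffix _s_at or _x_at of probes that can match related transcripts, ranged from -0.01 to 0.12. On all 4 of them control replicate 1 was above control replicate 2.

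The channel subunits differed from each other in how they were measured. Cnga2, the principal subunit without which no channel opens, read 12840.4, 11917.9 and 13301.0 in Harlequin, against 12867.3, 11672.5 and 12413.5 in controls. The arrays interleaved, and the difference was 0.04 (SE 0.07, limma adjusted p = 0.986, 95% interval 0.921 to 1.15 times). Cnga2 lies on chromosome X, as does the mutated gene Aifm1. Cnga4, a modulatory subunit that speeds channel closure by calcium, read 9138.3, 8976.7 and 9420.2 in Harlequin, against 10807.2, 7386.5 and 9290.4 in controls. Control replicate 1 lay above all 3 Harlequin arrays, control replicate 2 below them and control replicate 3 among them, with coefficients of variation of 2.45% in Harlequin and 18.7% in controls. The difference of 0.02 (SE 0.13, limma adjusted p = 0.998) moved to -0.13 without control replicate 2 and to 0.15 without control replicate 1.

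Cngb1, the beta subunit needed to carry the channel to the cilium and to tune its closing, was the 1 member with separate groups. Its single probe set (1451549_at) read 11.1, 81.8 and 49.9 in Harlequin, against 108.4, 114.3 and 110.7 in controls. The controls agreed closely, with a coefficient of variation of 2.68%, while the Harlequin arrays spread over 74.4%. The Harlequin mean of 47.6 ± 35.4 (SD, n = 3) was 42.8% of the control mean of 111 ± 2.97 (SD, n = 3). The log2 difference was -1.19 (SE 0.43, unadjusted p = 0.024), and the limma adjusted p was 0.981. Its 95% interval of 0.222 to 0.871 times excludes an equal level only before the adjustment over all genes.

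The probe set of Cngb1 sits near the limit of what these arrays resolve. On the control arrays 48.6% to 50.1% of all probe sets were dimmer than it, and the signal limit for testing was 61.1. The Harlequin mean of 47.6 lies below that limit, so the gene entered the test only because its control arrays were brighter, and a filter at the 60th percentile leaves it out. On the Harlequin arrays the share of dimmer probe sets was 15.1% for replicate 1, 44.4% for replicate 2 and 35.3% for replicate 3. Replicate 1 carried much of the difference, which was -0.66 without it and -1.59 without replicate 2. The size also followed the offset added before the logarithm, at -1.60 for an offset of 1 and -0.70 for an offset of 64. Without control replicate 1 or control replicate 2 its unadjusted p no longer lay under 0.05. The control mean of Cngb1 was 111, against 12318 for Cnga2 and 9161 for Cnga4, the other subunits of the channel. The cause of this gap was not tested. The sources used here do not say which Cngb1 transcript the probe set reads, so 42.8% of control describes this probe set only.

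The phosphodiesterase gene Pde1c read 4405.1, 6065.5 and 5282.3 in Harlequin at its brightest probe set, against 5559.7, 5061.7 and 4139.0 in controls. Here, too, the arrays interleaved. The difference was 0.09 (SE 0.14, limma adjusted p = 0.986, 95% interval 0.849 to 1.34 times). Pde1c had 6 probe sets, the most of any member, with differences from -0.22 to 0.21 that lay on both sides of 0. The probe sets at the ends of this range were dim, with 94.3 to 152.6 and 116.2 to 301.0 over the 6 arrays.

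Slc24a4, the potassium-dependent sodium and calcium exchanger that clears calcium from the cilium, read 816.7, 944.6 and 1066.4 in Harlequin, against 769.1, 702.9 and 1075.9 in controls. Control replicate 3 was the highest of the 6 arrays and the other controls were the lowest. The mean was 943 ± 125 in Harlequin and 849 ± 199 in controls (SD, n = 3 each), or 111%. The difference was 0.16 (SE 0.18, limma adjusted p = 0.982), with the widest interval of the 9 genes, 0.847 to 1.48 times, and reached 0.34 without control replicate 3. With 3 arrays a group, any level within that interval is compatible with the values before adjustment. The interval is not a limit of what the test could have called.

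**Figure D2:**
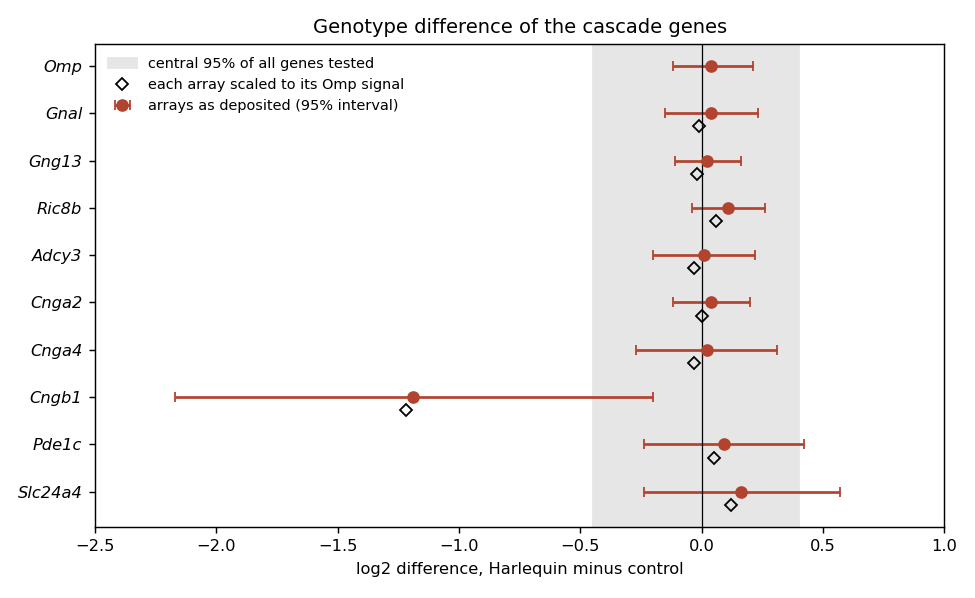
The log2 difference, Harlequin minus control, is plotted for each cascade gene in the order of the pathway, with its 95% limma interval (red) and the value after each array was scaled to its own Omp signal (open diamonds). The grey band holds the central 95% of all genes tested, from -0.45 to 0.40, and every gene but Cngb1 lies inside it.

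The 9 other members were close to 0 with intervals that together reached from -0.27 to 0.57. Since the genes are used by the same neurons, each array was also scaled to its own Omp signal, which sets the members per unit of this marker. This lowers every gene by the difference of Omp itself, so a member whose own difference was smaller than that of Omp falls below 0 by construction, and its sign there carries nothing. On that scale 8 genes, Cngb1 aside, differed by -0.03 to 0.12. Ric8b stood at 0.06, Pde1c at 0.05, Slc24a4 at 0.12 and Cngb1 at -1.22. None of these differences passed the test on either scale.

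Taken as a set, the members differed more among arrays of a genotype than between the genotypes. Averaged over the 9 genes other than Cngb1, the log2 deviation from each gene's own mean was -0.0491, 0.0627 and 0.0769 for the Harlequin mice, against 0.0596, -0.111 and -0.0392 for the controls. Control replicate 2 was below the gene's mean for 8 of the 9 genes, and Harlequin replicate 3 and control replicate 1 were above it for 8 of 9. Over all 10 members control replicates 2 and 3 were each the lowest array for 4 genes. Omp did not follow this order, being lowest on Harlequin replicate 3.

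**Figure D3:**
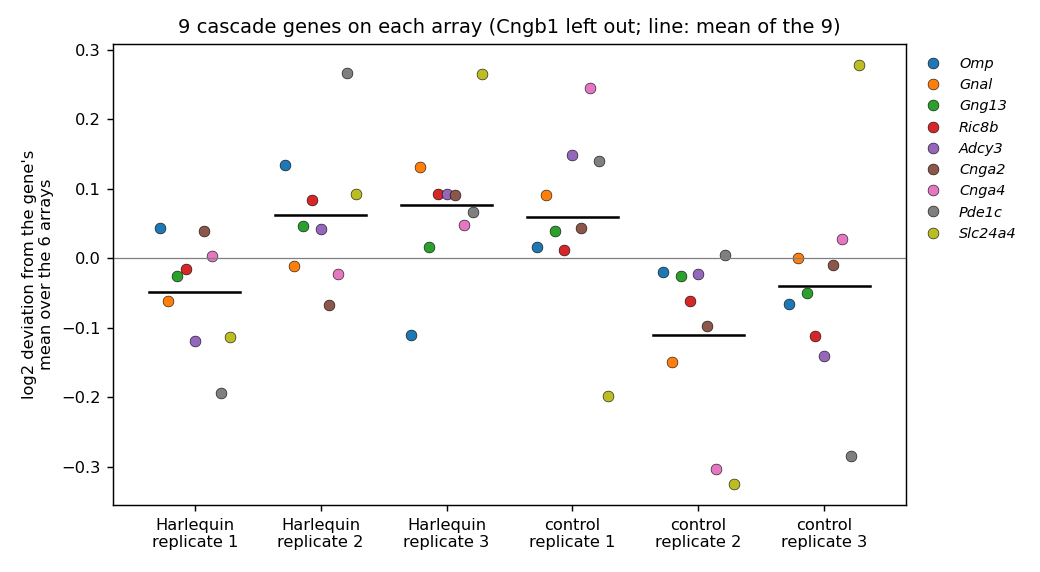
Each point is the log2 deviation of 1 of 9 cascade genes from its mean over the 6 arrays (vertical axis), grouped by array with Harlequin at left, and black lines give the mean of the 9 genes. The line is lowest for control replicate 2, at -0.111, and the Harlequin and control lines overlap.

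All 23 probe sets passed the signal limit, and 17 lay above 0 and 6 below. Tested on their own, 0 of 23 passed among 27022 probe sets, of which 0.0259% did, with a lowest adjusted p of 0.985. The groups did not overlap for 1 of 23 probe sets, or 4.35%, where 10% of all probe sets were separate. Of the 6 genes with several probe sets, 3 (Gnal, Adcy3 and Pde1c) had probe sets on both sides of 0. The 4 genes Cnga2, Cnga4, Cngb1 and Slc24a4 rest on 1 probe set each.

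**Figure D4:**
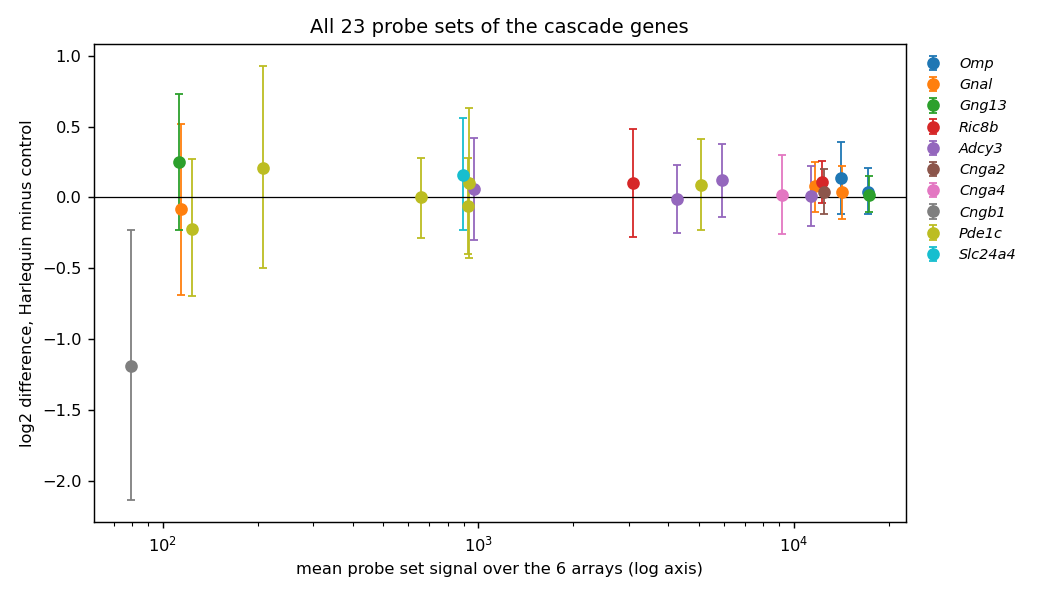
The log2 difference of each of the 23 probe sets, Harlequin minus control with its 95% interval, is plotted against its mean signal over the 6 arrays on a log axis, coloured by gene. Intervals widen toward the dim end, where Cngb1 is the dimmest probe set and the 1 whose interval leaves out 0.

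Other genes of the pathway were taken from 5 lists drawn up by textbook role, 31 genes in all. Of these 23 had a probe set that names them alone and 19 passed the signal limit. In limma 0 of 19 rose and 0 fell at an adjusted p under 0.05, where 0.0151% of all genes were called in each direction. Differences ranged from -0.34 to 0.34, with 8 above 0 and 11 below and a median of -0.0044. Before adjustment 2 of 19 genes, Ncald and Pde4a, had a p under 0.05, next to 4.58% of all genes. The groups did not overlap for 3 of 19, Gnas, Ncald and Pde4a, next to 10.4% of all genes. Rtp1, Rtp2, Gfy, Gucy2d and Ano2 were among those not analysed here, so the chloride channel Ano2 has no value.

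For receptor export 1 of 4 genes was measured, Reep1, at 0.12 on its brightest probe set. Its other, dim probe set differed by -0.21 with all Harlequin arrays below all controls, and the mean over both was -0.04, so no direction is given for Reep1. Among the G protein and cyclase partners, Gnb1, a beta subunit, differed by -0.14 and Gnas, the close relative of Gnal found in most cells, by -0.09. Gnas read 8898.7, 8967.6 and 8018.2 in Harlequin, against 9472.7, 9130.5 and 8986.8 in controls, so the groups were apart by a narrow margin (limma adjusted p = 0.981). Its other, dim probe set differed by 0.14. Adcy2, another cyclase, differed by 0.13 and Ric8a, the relative of Ric8b, by 0.06. Stoml3, a protein of the olfactory cilium membrane, read 20798.4 to 22127.5 in Harlequin and 21065.7 to 22291.0 in controls.

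Slc12a2, the cotransporter that loads olfactory neurons with the chloride used for amplification, read 13450.8, 12756.3 and 15495.2 in Harlequin, against 13827.1, 14636.2 and 15944.0 in controls. The arrays overlapped, with a difference of -0.09 (SE 0.09, limma adjusted p = 0.982). In the calcium feedback list 6 of 13 genes were tested, 1 above 0 and 5 below at the brightest probe set. The calcium pump Atp2b1, named after its values were seen, is counted below 0 at -0.10, but another of its probe sets (1452969_at) differed by 0.41 (unadjusted p = 0.00631, limma adjusted p = 0.985 over all probe sets). That probe set read 917.0, 890.5 and 1003.8 in Harlequin, against 681.8, 762.1 and 655.4 in controls, so its groups were apart, and the mean over the probe sets of Atp2b1 was 0.09. Ncald, a neuronal calcium sensor, read 843.4, 793.0 and 872.8 in Harlequin, against 973.2, 1022.7 and 1207.7 in controls. All 3 Harlequin arrays lay below all 3 controls, as did those of another Ncald probe set that differed by -0.24. The difference at the brightest probe set was -0.34 (SE 0.12, unadjusted p = 0.0183), and the limma adjusted p over all genes was 0.981. The remaining, dim probe set of Ncald differed by 0.04, and the average over its probe sets was -0.18. The related sensor Vsnl1 differed by -0.16, the sodium and calcium exchanger Slc8a1 by 0.21 and the calcium pump Atp2b2, a dim gene, by -0.28.

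In the shut-off list all 6 genes were tested, 4 above 0 and 2 below. Pde4a, a cyclic AMP phosphodiesterase of the neuron outside the cilium, read 1665.8, 1818.4 and 1834.2 in Harlequin, against 1568.9, 1216.3 and 1435.3 in controls. Each Harlequin array was above each control. The mean was 1773 ± 93.0 in Harlequin and 1407 ± 178 in controls (SD, n = 3 each). The difference of 0.34 (SE 0.12, unadjusted p = 0.0188) failed the test over all genes (adjusted p = 0.981 in limma) and stayed between 0.24 and 0.42 with any 1 array left out. Arrb2, an arrestin of receptor desensitisation, differed by 0.26 and Pde2a, a phosphodiesterase of a separate set of olfactory neurons that signals through cyclic GMP, by 0.25. The Arrb2 arrays overlapped there, but on its other probe set (1426239_s_at) all Harlequin arrays lay above all controls. That probe set differed by 0.24 (unadjusted p = 0.0427, limma adjusted p = 0.985 over all probe sets). Pkia, an inhibitor of protein kinase A, differed by 0.06.

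**Figure D5:**
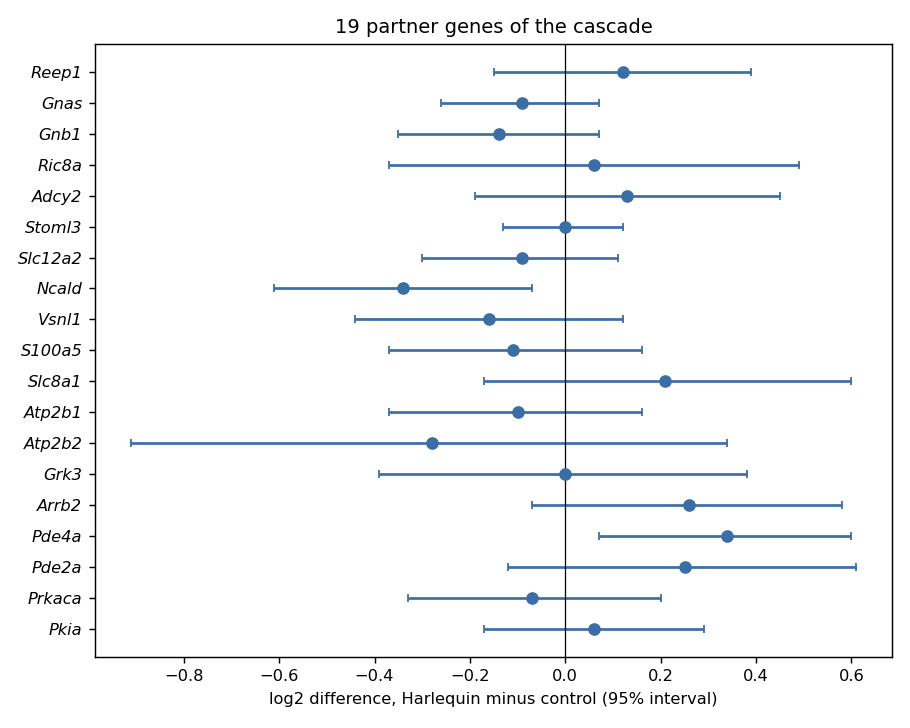
The log2 difference, Harlequin minus control, of the 19 partner genes tested is plotted with its 95% limma interval, in the order of the lists from receptor export to shut-off. The intervals of Ncald, at -0.34, and Pde4a, at 0.34, leave out 0 before adjustment, and the other 17 include it.

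The genes whose pattern over the 6 arrays was most like the mean of the 10 members were Tnnt1, Fbxo41, Snn, Cbr2 and Chst11, with Pearson correlations of 0.998 to 0.983 over 6 arrays. This order follows Cngb1, which on Harlequin replicate 1 had a log2 deviation of -1.637 from its own mean and pulls the average down there. With Cngb1 left out, a choice made after its values were seen, the nearest genes were Paqr9, Zcchc18, Rab2b, Mgll and Mapk8ip2, at 0.990 to 0.987. The lists share no gene. With 6 arrays and 13219 genes, values this high describe the arrays and carry no test.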

How the data were processed

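The deposited file holds 1 linear intensity for each of 45101 probe sets on 6 arrays, rounded by the authors to 1 decimal; each array has the same mean, 500, after its lowest and highest 2% are left out. The label reaction started from 3 µg of RNA, per the labels' protocols. How probe cells were condensed is not given in the sources used here. Leaving out 64 control probe sets, 34945 name 1 gene, 932 several and 9160 are unnamed here; 18032 of 18194 gene identifiers matched RefSeq. Groups come from the titles, which call the arrays of a genotype biological replicates.

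Values were analysed as log2(value + 16), with the brightest probe set per gene and genes above the 40th percentile of signal, 61.1. The comparison used limma 3.58.1 (R 4.3.3, intensity trend, two-sided, Benjamini-Hochberg over 13219 genes, threshold 0.05); fold changes are Harlequin over control on that scale and understate dim genes. Depth is not defined for arrays, and their number limits the precision. The script was tested on simulated data. Named genes are all members, Aifm1, up to 4 genes with the smallest p per partner list, conventional markers and the 5 genes most alike; Gnat3 and others without a probe set of their own are not reported, nor is every other gene the rule allows; Stoml3 was named after its values were seen, and of 15 marker lists, with 0 genes called in any, those bearing on the tissue are described. The members and lists were chosen with earlier results of these data known.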

Additional observations from a re-analysis of the deposited data

How the results depend on the processing

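Under 19 alternatives (other pseudocounts, filters, normalizations, variance models, probe set rules, the replicate block and each array left out) 0 of 10 cascade genes, 0 of their probe sets and 0 partner genes passed under any of them, with a lowest adjusted p of 0.892 for a member. Of 188 alternative values for single members, 174 kept their sign and 14 turned it. Scaling to Omp subtracts the difference of Omp from every gene, so members under it turn by construction: Gnal stood at -0.006, Gng13 at -0.021, Adcy3 at -0.035, Cnga2 at -0.003 and Cnga4 at -0.025. With each array left out in turn, the genes that turned sign ran from -0.011 to 0.11 (Omp), -0.026 to 0.094 (Gnal), -0.058 to 0.087 (Adcy3), -0.13 to 0.15 (Cnga4) and -0.027 to 0.21 (Pde1c). The cause of the turns with an array left out was not tested. The count of 4 genes changed over all genes became 0 without an intensity trend (643 at an unadjusted p under 0.05) and 0 with the replicate block (541), and ran from 0 to 3 with 1 array left out. Aifm1 kept its log2 difference of -2.20 in both of those fits but no longer passed, at an adjusted p of 0.0887 without the trend and 0.0605 with the replicate block; with 1 array left out it ran from -2.40 to -2.08. Replicate numbers are shared between the genotypes. Deviations of same-numbered arrays correlated at -0.237, -0.0298 and 0.0582, and those of arrays with different numbers at -0.245 to 0.3. These values cannot show whether the numbers pair the mice. The 60th percentile filter removes Cngb1 and the Omp scaling removes Omp, and the rules on probe sets of a gene give no value for single probe sets. Dim signal limits Cngb1, Trpm5, Atp2b2 and the dim probe sets of Gnal, Gng13 and Pde1c. At the bright end, whether signals such as those of Omp, Gnal and Gng13 still rise in proportion to the RNA was not tested.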
